A study of Mus musculus with 24 samples.

Results

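The posterior Hoxa genes are the 5 protein-coding genes Hoxa7, Hoxa9, Hoxa10, Hoxa11 and Hoxa13 at one end of the Hoxa cluster on mouse chromosome 6. They were taken by position, as the genes inside chr6:52214500-52270880 of the mm10 build, an interval of 56381 bp, and are 5 of the 21631 protein-coding genes annotated on chromosomes 1 to 19 and X. All 5 were followed in 14 lists of regions called from chromatin immunoprecipitation sequencing (ChIP-seq) of mouse leukaemia cells. In that assay, DNA bound by a protein, or wrapped around a histone that carries a mark, is pulled down with an antibody and sequenced. Each list holds the stretches of genome, called regions here, where the authors found enrichment in 1 library.

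Hox genes encode homeodomain transcription factors that set position along the body axis, and the order of the genes along a cluster matches the order of their domains in the embryo. In blood, the posterior Hoxa genes are active in stem and progenitor cells and are switched off as cells mature. Sustained Hoxa9 expression, usually together with its partner Meis1, is a hallmark of several acute myeloid leukaemias, those with NUP98 fusions among them. MLL1, the product of Kmt2a, is a histone methyltransferase that acts on lysine 4 of histone H3 and has Hoxa genes among its classic targets. Menin, the product of Men1, binds the amino-terminal part of MLL1 and helps to hold it on chromatin. Trimethylation of that lysine (H3K4me3) marks the starts of active genes.

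Cells of 4 lines were compared, each named by a fusion of the nuclear pore protein NUP98, and every line carried its fusion in both arms. The treated arm received VTP50469, a small molecule that blocks the contact between menin and MLL1, and the other arm received its solvent DMSO. MLL1 was mapped in NUP98-HOXA9 cells after 2 µM for 72 h, in NUP98-HOXD13 and NUP98-JARID1A cells after 2 µM for 96 h, and in NUP98-NSD1 cells after 200 nM for 96 h. For NUP98-NSD1 the protocol text names 2 µM, while the sample labels give 200 nM. Menin was mapped in NUP98-HOXA9 and NUP98-HOXD13 cells and H3K4me3 in NUP98-HOXA9 cells, all after 2 µM for 96 h. Cells grew with the mouse cytokines interleukin-3, interleukin-6 and stem cell factor. The labels name no clone, no construct and no species for the fused parts. In NUP98-HOXA9 the line code in the titles has an added suffix for MLL1 that is absent for Menin and H3K4me3. What that suffix marks is not stated. Reads from a Hoxa9 part of a fusion cannot be told apart from reads of Hoxa9 itself where the 2 sequences match, so coverage of Hoxa9 in NUP98-HOXA9 cells is uncertain in this respect.

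Each condition had 1 library, so no value below has a replicate error and no test was made. Values are covered lengths in bases, which do not measure how strongly a protein was bound. Read depth is unknown. The number of regions in each list is given, but it also varies with enrichment and is not a measure of depth. Lists cut to equal length are therefore not corrected for depth. The 14 lists held 403 to 24950 regions, and 2 treated lists stand apart as short. The NUP98-NSD1 list of MLL1 had 1036 regions after VTP50469 and 7113 in DMSO, and the NUP98-HOXA9 list of Menin had 403 and 9050. As a check of the cell type in NUP98-HOXA9 alone, H3K4me3 regions lay within 1 kb of 6 of 8 blood and myeloid marker genes in VTP50469 and in DMSO, with Cd34 and Itgam as the exceptions. The same lists had 1 of 10 markers of other cell types, the adhesion molecule gene Pecam1, which blood cells also use. Lines other than NUP98-HOXA9 have no H3K4me3 list. MLL1 regions in DMSO overlapped 7 of the 8 blood and myeloid genes in each line but NUP98-NSD1, which had 3. After VTP50469 they covered 0 bases of these genes in NUP98-NSD1.

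The promoter windows of 4 starts and the mature microRNA of the interval are shown because they separate what the lists cover from what they do not. Each window runs from 250 bases before to 50 bases after an annotated start, as given by RefSeq for GRCm38.p6, and CG dinucleotides are in capitals. Unmethylated CG is what the CXXC domain of MLL1 binds. All 5 genes lie on the minus strand. The windows are Hoxa7 at chr6:52218524-52218823, Hoxa9 at chr6:52227321-52227620, the second start of Hoxa10 at chr6:52234890-52235189 and Hoxa13 at chr6:52260831-52261130.
Hoxa7: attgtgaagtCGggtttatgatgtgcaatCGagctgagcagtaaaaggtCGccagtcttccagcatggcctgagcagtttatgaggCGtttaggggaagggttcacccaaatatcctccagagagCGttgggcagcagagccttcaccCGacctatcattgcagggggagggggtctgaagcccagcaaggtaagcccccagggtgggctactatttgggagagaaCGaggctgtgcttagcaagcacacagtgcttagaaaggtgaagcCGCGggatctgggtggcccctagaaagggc
Hoxa9: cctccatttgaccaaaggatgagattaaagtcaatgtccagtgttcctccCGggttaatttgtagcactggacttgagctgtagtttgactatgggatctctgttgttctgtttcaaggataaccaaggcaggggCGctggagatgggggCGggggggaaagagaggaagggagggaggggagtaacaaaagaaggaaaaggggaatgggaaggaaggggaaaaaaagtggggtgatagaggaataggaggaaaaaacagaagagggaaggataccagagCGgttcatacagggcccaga
Hoxa10, second start: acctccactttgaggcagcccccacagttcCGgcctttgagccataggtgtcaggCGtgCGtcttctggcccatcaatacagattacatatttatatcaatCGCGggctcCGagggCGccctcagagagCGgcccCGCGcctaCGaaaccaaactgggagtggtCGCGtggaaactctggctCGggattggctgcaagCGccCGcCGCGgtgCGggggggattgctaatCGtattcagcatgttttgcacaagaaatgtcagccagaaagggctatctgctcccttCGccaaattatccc
Hoxa13: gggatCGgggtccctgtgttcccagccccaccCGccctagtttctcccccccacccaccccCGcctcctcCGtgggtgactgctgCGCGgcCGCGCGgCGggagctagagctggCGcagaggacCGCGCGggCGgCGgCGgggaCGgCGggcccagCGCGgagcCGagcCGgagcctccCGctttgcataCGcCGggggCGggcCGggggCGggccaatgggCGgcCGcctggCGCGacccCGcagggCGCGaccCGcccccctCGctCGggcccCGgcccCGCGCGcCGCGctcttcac
The window of Hoxa13 held 45 CG, and 1.93% of the 32851 promoter windows in the table hold as many. That of Hoxa9 held 4, below the median of 7 over all windows, and those of Hoxa7 and of the second Hoxa10 start held 9 and 21. The window with the most CG was thus the one that MLL1 regions touched least. Hoxa13 was touched in 1 of the 14 lists, by 138 bases in NUP98-JARID1A after VTP50469. After VTP50469 MLL1 covered all 300 bases of the Hoxa9 window in NUP98-JARID1A and none in NUP98-HOXA9, NUP98-NSD1 or NUP98-HOXD13, while the 4 DMSO lists covered all 300. The Hoxa7 window was at least partly covered in every line: after VTP50469 all 300 bases were covered in NUP98-JARID1A and NUP98-HOXA9, 213 in NUP98-NSD1 and 76 in NUP98-HOXD13, and each DMSO list covered all 300.

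Motif letters were counted on both strands of the 6 windows of the 5 genes, which include the first start of Hoxa10 and that of Hoxa11. The TATA box letters TATAAA stood once, in the window of the second Hoxa10 start, and 13.6% of all windows hold them. The letters TGATTNAT, read by HOX proteins with PBX partners, and TGACAG, read by MEIS proteins, stood in none of the 6, against 3.22% and 19.2% of all windows. These counts describe letters and not binding.

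After VTP50469, MLL1 lay over the posterior Hoxa genes as separate pieces in 3 lines and as 1 wide domain in NUP98-JARID1A, while every DMSO list had a wide domain. MLL1 covered 11938 bp of the interval after VTP50469 and 19965 bp in DMSO in NUP98-HOXA9 cells, so 59.8% of the covered length was left. NUP98-HOXD13 cells had 5782 bp and 19154 bp, or 30.2%, and NUP98-NSD1 cells had 12153 bp and 32642 bp, or 37.2%. In these 3 lines every base covered after treatment had been covered in DMSO, so no new MLL1 region appeared. The treated regions were thus smaller pieces of the DMSO domain. Their number was 11 against 1 in NUP98-HOXA9, 8 against 4 in NUP98-HOXD13 and 10 against 5 in NUP98-NSD1, with widest pieces of 3255, 1437 and 3748 bp. NUP98-JARID1A cells covered 29047 bp after VTP50469 and 28283 bp in DMSO, or 102.7%. The number of regions was higher after treatment in this line too, 7 against 4. Its widest treated region had 28319 bp, against 30990 bp in DMSO, and was the widest of its whole list. Widths of regions include bases before the start of the interval. Of the DMSO bases in that line 95.3% were still covered, and 2093 bp were covered after treatment alone. NUP98-JARID1A also had the longer list after treatment, 24950 regions against 15765. With lists of equal length, 92.7% was left.

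**Figure D1:**
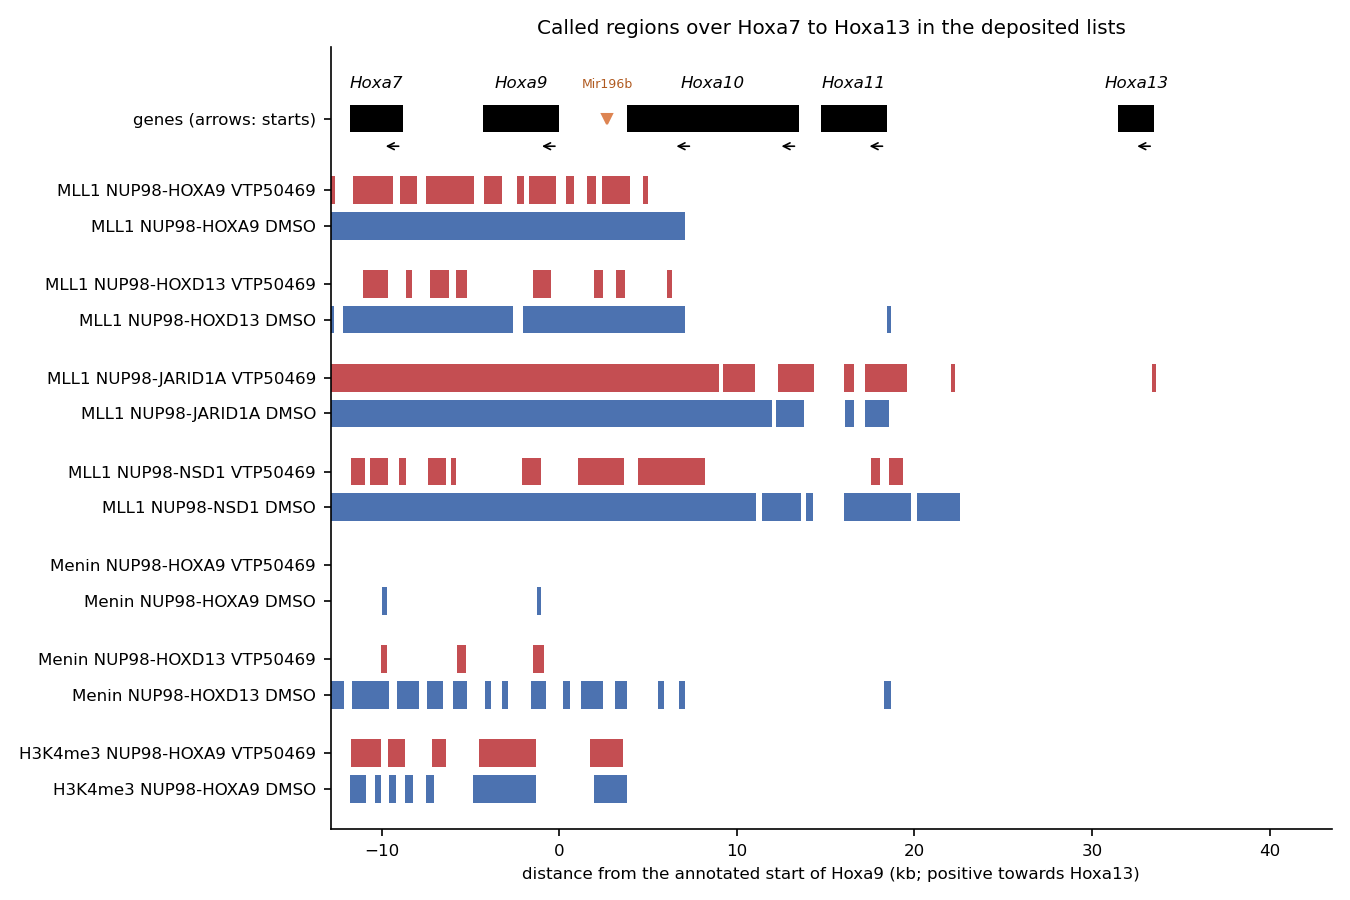
Called regions over the Hoxa7 to Hoxa13 interval in the 14 lists, with distance from the annotated start of Hoxa9 in kb on the horizontal axis and 1 row per library (VTP50469 red, DMSO blue; black bars are genes, arrows their starts, and the triangle marks Mir196b). In NUP98-HOXA9, NUP98-HOXD13 and NUP98-NSD1 the red MLL1 pieces all lie inside the wide blue regions, while NUP98-JARID1A has a single red region of 28319 bp over Hoxa7 and Hoxa9.

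In DMSO, MLL1 lay over Hoxa7, Hoxa9 and the downstream part of Hoxa10 in all 4 lines as 1 wide domain or as neighbouring wide regions. In NUP98-HOXA9 cells a single region of 23187 bp held the whole of Hoxa7 and Hoxa9. NUP98-HOXD13 cells had 2 neighbouring regions of 9564 and 9166 bp with a gap inside Hoxa9. The widest regions were 30990 bp in NUP98-JARID1A and 26004 bp in NUP98-NSD1. These 2 regions were the widest of their whole lists, and the widest regions of the interval in NUP98-HOXA9 and NUP98-HOXD13 ranked 2nd by width. Few places in the genome had as many bases in MLL1 regions. Against windows of the same length laid end to end over the chromosomes, the interval ranked 3rd by covered bases in NUP98-HOXA9 and 2nd in each of the other 3 lines. The interval was framed on the genes, while such windows cut other domains wherever their edges fell. By the authors' fold, its highest DMSO region ranked 5th in NUP98-JARID1A, 9th in NUP98-NSD1, 13th in NUP98-HOXA9 and 1103rd in NUP98-HOXD13.

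Hoxa7, a homeobox gene often active together with Hoxa9 in leukaemia, spans chr6:52215623-52218573. MLL1 covered all 2951 of its bases after VTP50469 in NUP98-JARID1A cells, 2374 in NUP98-HOXA9, 1993 in NUP98-NSD1 and 1437 in NUP98-HOXD13. In DMSO all 2951 bases were covered in each of the 4 lines. Hoxa7 was therefore the member whose body stayed most covered in the 3 lines where the domain broke up, with 80.4%, 48.7% and 67.5% left in NUP98-HOXA9, NUP98-HOXD13 and NUP98-NSD1. Counted with 2 kb on both sides, Hoxa7 kept 39.8% and Hoxa10 47.4% in NUP98-NSD1, so Hoxa7 was not the highest member there and fell under the 50% that marks a shortened gene in the counts given after Hoxa13.

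Hoxa9, whose product supports self-renewal of leukaemia cells, spans chr6:52223097-52227370. MLL1 covered 2957 of its 4274 bases after VTP50469 and 4274 in DMSO in NUP98-HOXA9 cells. NUP98-HOXD13 cells had 973 and 3742 bases, and NUP98-NSD1 cells had 1085 and 4274. NUP98-JARID1A cells had all 4274 bases covered in VTP50469 and in DMSO, which leaves no room for a gain to show. After treatment a single piece remained over Hoxa9 in NUP98-HOXD13 and in NUP98-NSD1, and NUP98-HOXA9 had 3 pieces, the widest of 1553 bp. None of these pieces held the start of the gene. In 7 lists, the MLL1 and Menin lists of NUP98-HOXA9 and NUP98-HOXD13 that had a region there, the summits, the points of highest enrichment, fell within 103 bp of each other, with their median 1099 bases into the gene. The same spot was thus a summit of MLL1 in both arms of both lines.

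Hoxa10, a homeobox gene of myeloid progenitors and of the uterus, spans chr6:52231197-52240854 and has 2 annotated starts, at positions 52240854 and 52234939. MLL1 covered 492 of its 9658 bases after VTP50469 and 3268 in DMSO in NUP98-HOXA9 cells, and 277 and 3280 bases in NUP98-HOXD13 cells. That left 15.1% and 8.45% of the gene's cover, or 41.1% and 24.7% when counted with 2 kb on both sides. Both DMSO domains ended before the second start, 475 bases short of it in NUP98-HOXA9 and 463 in NUP98-HOXD13, so neither start of Hoxa10 lay in an MLL1 region in these lines. NUP98-JARID1A cells had 8120 and 9396 bases, and NUP98-NSD1 cells had 3748 and 9302. In these other 2 lines an MLL1 region ran over the second start in VTP50469 and in DMSO. The summit of that region lay inside Hoxa10 there and not inside Hoxa9. Together with 1 Menin summit of NUP98-HOXD13 in DMSO, those 4 MLL1 summits spanned 157 bp, with their median 757 bases downstream of the second start. Among the 830 genes that had any MLL1 region after VTP50469 in NUP98-NSD1, Hoxa10 had the most covered bases, Hoxa7 ranked 5th and Hoxa9 ranked 20th.

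Hoxa11, which patterns the forearm and the uterus, spans chr6:52242105-52245810, and no MLL1 region overlapped it in NUP98-HOXA9 or NUP98-HOXD13. NUP98-JARID1A cells had 1717 of its 3706 bases covered after VTP50469 and 1762 in DMSO, and NUP98-NSD1 cells had 484 and 2415. In NUP98-JARID1A that left 97.4%, a value that depends on the regions used, with 152.5% when 2 kb on both sides were counted and 68.5% both at a −log10 q of at least 5 and in lists of equal length. The 4 lists with a region shared a summit within 62 bp of each other, 653 bases into the gene at the median. A region of 218 bp just before the start of Hoxa11 was the only MLL1 region of NUP98-HOXD13 beyond Hoxa10, and it was present in DMSO alone.

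Hoxa13, which patterns the digits and the genital tract, spans chr6:52258853-52260880 and was close to empty. Of the 14 lists, 1 had a region over it. That was 141 of 2028 bases in NUP98-JARID1A after VTP50469, from 1 region of 229 bp at the start of the gene with a fold of 3.80, which is the authors' own value and lies below the median fold of 10.4 of that list.

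**Figure D2:**
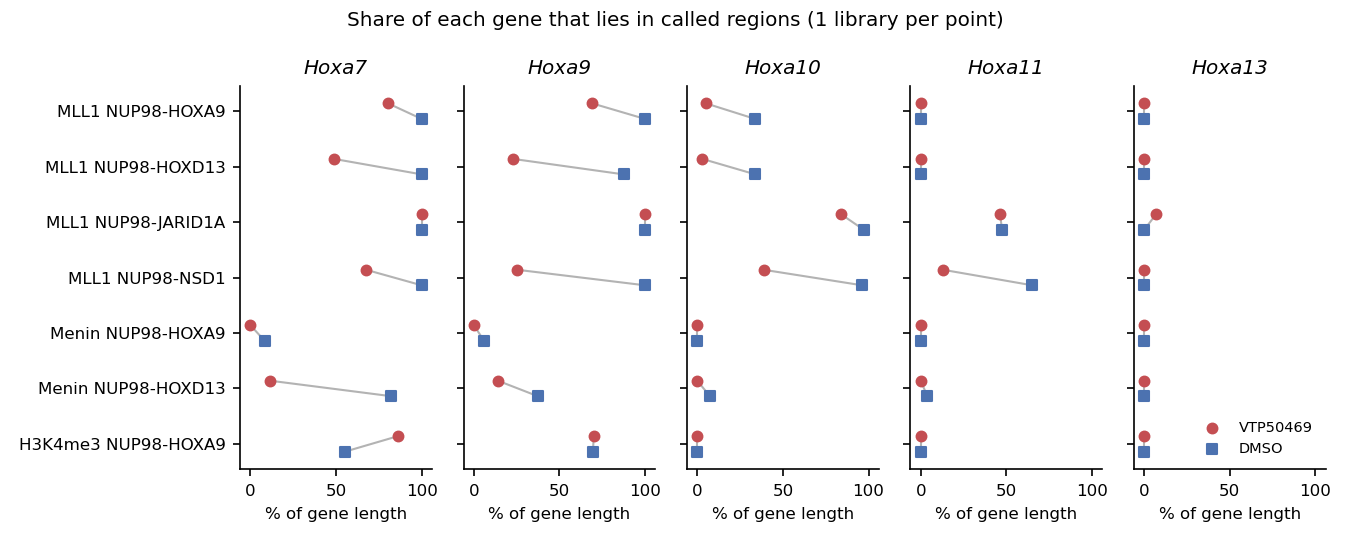
Percent of each gene's length, from annotated start to annotated end, that lies in called regions (horizontal axis) for each antibody and cell line (vertical axis), with VTP50469 as red circles above DMSO as blue squares and 1 library per point. Hoxa11 and Hoxa13 are at 0 in most lists, and Hoxa7 and Hoxa9 are at 100% in both arms for MLL1 in NUP98-JARID1A.

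Along the cluster, the covered share of a gene was highest or equal highest at Hoxa7 and did not rise from each gene to the next in most lists. The exceptions were MLL1 in NUP98-NSD1 after VTP50469, with 38.8% of Hoxa10 and 25.4% of Hoxa9 covered, Menin in NUP98-HOXD13 after VTP50469, with 13.99% of Hoxa9 and 11.5% of Hoxa7, and H3K4me3 in DMSO, with 69.6% of Hoxa9 and 55.2% of Hoxa7. A gene was counted as shortened where at most 50% of its DMSO bases were left, and as lengthened where at least 200% were. In NUP98-HOXA9, 1 of the 3 members with MLL1 in DMSO was shortened, Hoxa10 at 15.1%, beside 19.1% of all 11023 genes with any region in DMSO and 51.6% of the 997 genes with at least 2 kb covered. In NUP98-HOXD13 all 3 of 3 were shortened, beside 38.6% of 11111 genes and 72% of the 692 with at least 2 kb. In NUP98-JARID1A none of 4 was, beside 4.77% of 10002 genes and 12% of 786. NUP98-NSD1 had 3 of 4 shortened, beside 95.8% of 5256 genes and 97.5% of 240. No member was lengthened in any of the 4 lines. Of all genes with a region in DMSO, 22.3% were in NUP98-JARID1A, 3.71% in NUP98-HOXA9, 0.801% in NUP98-HOXD13 and 0.152% in NUP98-NSD1. Of those with at least 2 kb covered, 1.65% of 786 were in NUP98-JARID1A and 0% in each of the other lines. A gene with more than 50% of its length covered in DMSO cannot reach 200%. That held for Hoxa7 in every line, and in NUP98-JARID1A also for Hoxa9 at 100% and Hoxa10 at 97.3%.

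With 3 or 4 members covered, none of these counts is a result about the members as a group, and the single genes differ in where they stand. At Hoxa10 the percent left was low in NUP98-HOXA9 and NUP98-HOXD13, where 5.92% of 997 and 8.09% of 692 genes with at least 2 kb had as little or less. Hoxa7 stood above most such genes in the same lines, with 83.9% and 70.8% of them at or below it. These positions use gene bodies alone. With 2 kb on both sides Hoxa10 kept 41.1% and 24.7% in these lines, and Hoxa7 kept 71.6% and 36.6%. No positions among all genes were taken for those values. In NUP98-NSD1 the median gene kept 0% and Hoxa7 kept 67.5% of its body, the highest of the 240 genes with at least 2 kb. Hoxa10 at 40.3% was matched or passed by 3.33% of the 240, itself included, Hoxa9 at 25.4% by 8.33% and Hoxa11 at 20.0% by 13.3%. Among all 5256 genes with any DMSO region in NUP98-NSD1, 2.55% kept as large a share as Hoxa7 or a larger one. With 2 kb on both sides Hoxa7 kept 39.8% in NUP98-NSD1, less than the 47.4% of Hoxa10. This line has an input library of treated cells alone, its treated list was 1 of the 2 short ones, and the part of either in these values was not tested. NUP98-HOXA9 also lacks inputs of both arms at the same time, with DMSO alone at 72 h and VTP50469 alone at 96 h.

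**Figure D3:**
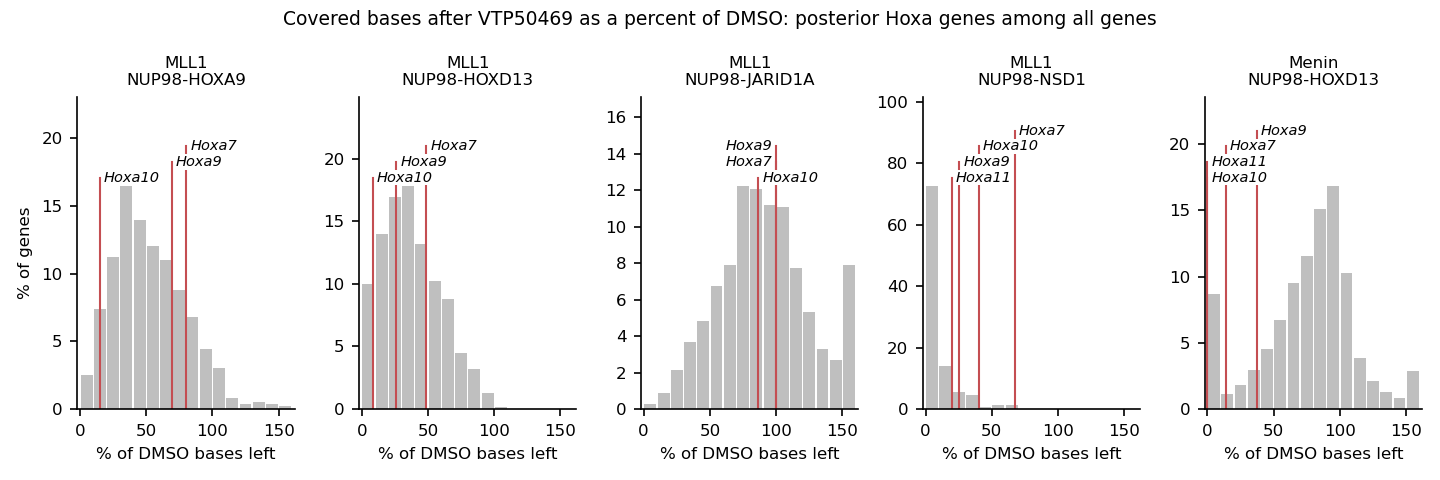
Percent of the DMSO covered bases left after VTP50469 (horizontal axis; values of 150 and more share the last bar) in all protein-coding genes as grey bars, in percent of genes (vertical axis), with the posterior Hoxa genes as red lines. MLL1 panels use genes with at least 2 kb covered in DMSO and the Menin panel uses genes with any DMSO region. Counted over gene bodies alone, Hoxa7 at 67.5% is the highest of the genes shown in NUP98-NSD1. All 4 Menin members lie at 37.4% or less in NUP98-HOXD13, where the median gene kept 82.2%.

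The loss differed along the interval. From the start of the interval to the end of Hoxa9, MLL1 kept 100% of its DMSO bases in NUP98-JARID1A, 70.5% in NUP98-HOXA9, 37.8% in NUP98-HOXD13 and 35.4% in NUP98-NSD1. From there to the end of Hoxa10 the same lines kept 90.3%, 40.4%, 18.4% and 48.2%. NUP98-NSD1 was the line in which the stretch with Hoxa10 kept the larger share. Beyond Hoxa10, NUP98-HOXA9 had no MLL1 region in VTP50469 or DMSO, NUP98-NSD1 had 1270 and 6643 bp, and NUP98-JARID1A had 4230 and 2190 bp. The last of these was the one stretch where a treated MLL1 list covered more than its DMSO list.

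Common ground between the lines was narrow after VTP50469 and wide in DMSO. Bases that lay in MLL1 regions of all 4 lines came to 3176 after VTP50469 and 18924 in DMSO. The treated ones formed 8 islands of 31 to 1018 bp and those in DMSO formed 3. The widest treated island, 1018 bp at chr6:52216727-52217744, lay inside Hoxa7, and the next, 924 bp at chr6:52220081-52221004, between Hoxa7 and Hoxa9. An island of 481 bp lay between Hoxa9 and Hoxa10, and one of 418 bp at chr6:52225925-52226342 lay inside Hoxa9, centred 1236 bases into the gene. No island lay within Hoxa10, Hoxa11 or Hoxa13 after treatment. Without NUP98-NSD1, whose dose was lower, the shared bases came to 5177 after VTP50469 and 18924 in DMSO. The treated bases of the other 3 lines all lay inside the treated NUP98-JARID1A regions, and 89.5% of those of NUP98-HOXD13 also lay inside those of NUP98-HOXA9.

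**Figure D4:**
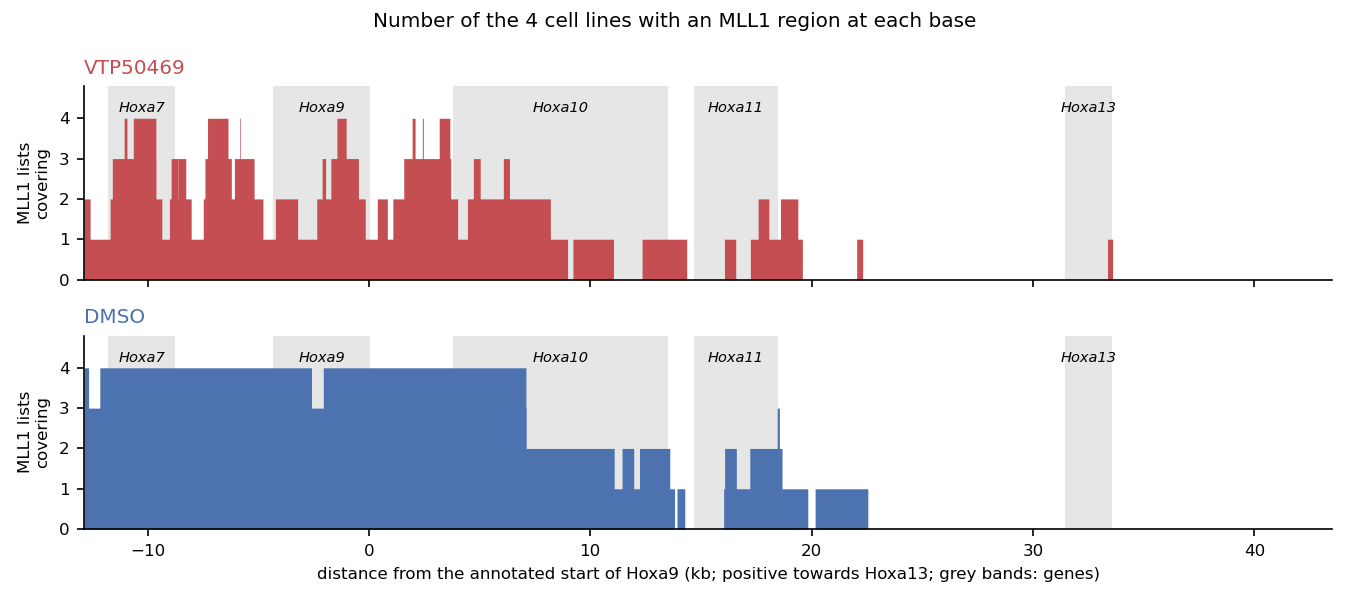
Number of the 4 cell lines with an MLL1 region (vertical axis, 0 to 4) at each base of the interval, by distance from the annotated start of Hoxa9 in kb (horizontal axis), VTP50469 above and DMSO below, with genes as grey bands. All 4 lines share 3176 bp after VTP50469 as 8 narrow peaks over Hoxa7, between the genes and inside Hoxa9, and 18924 bp in DMSO as wide blocks that reach into Hoxa10.

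Menin covered far less of the interval after VTP50469 in both lines in which it was mapped. NUP98-HOXD13 cells had 3 Menin regions with 1456 bp after VTP50469 and 14 regions with 10914 bp in DMSO, so 13.3% of the length was left and 11 of the 14 DMSO regions shared no base with a treated one. The 3 that remained lay inside Hoxa7, between Hoxa7 and Hoxa9, and inside Hoxa9. Hoxa7 had 339 and 2428 Menin bases in VTP50469 and DMSO, so 13.96% was left, or 7.84% with 2 kb on both sides. Hoxa9 had 598 and 1597. Hoxa10 had 0 and 713 bases, and Hoxa11 had 0 and 144. All 4 of the 4 covered members were shortened, beside 19.2% of 11098 genes, and the median gene kept 82.2%. Of those genes 9.04% kept as small a share as Hoxa7 or less, and 13.7% as small a share as Hoxa9. The full lists differed little in length, 16706 regions against 18826. With lists of equal length Hoxa9 kept 68.7% in place of 37.4% and was no longer counted as shortened.

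In NUP98-HOXA9 cells the Menin list had no region in the interval after VTP50469 and 2 regions in DMSO, of 245 bp in Hoxa7 and 255 bp in Hoxa9. Both of 2 covered members were thus shortened, beside 99% of 6877 genes, so the loss there was that of nearly every gene in a list of 403 regions. The same 2 spots, within Hoxa7 and within Hoxa9, held Menin summits in NUP98-HOXD13. At Hoxa7 they were 110 bp apart at most, counted with the treated MLL1 summit of that line.

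Where Menin was called, MLL1 was called as well. In NUP98-HOXD13, 99.2% of the Menin bases of the interval lay in MLL1 regions after VTP50469 and 93.9% in DMSO, while 25.0% and 53.5% of the MLL1 bases lay in Menin regions. Most MLL1 bases of the interval thus lay outside Menin regions after treatment. In NUP98-HOXA9 all 500 Menin bases in DMSO lay in the MLL1 region, which was mapped at 72 h and not at 96 h.

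In NUP98-HOXA9 cells H3K4me3 covered about as much of the interval and of Hoxa9 in both arms, and more of Hoxa7 after VTP50469. It covered 8555 bp of the interval after VTP50469 in 5 regions and 7968 bp in DMSO in 7 regions, or 107.4%. With regions of −log10 q of at least 5 this was 121.7%. Hoxa7 had 2543 and 1628 marked bases, and Hoxa9 had 2993 and 2973. Hoxa7 was thus at 156.2% of its DMSO bases. The size of this gain depends on the regions used, with 119.1% when gaps of up to 500 bp were joined and 111.1% with 2 kb on both sides. Of 8587 genes 7.34% had as large a percent as the 156.2% of Hoxa7 or a larger one. Neither Hoxa7 nor Hoxa9 was shortened, beside 6.11% of the 8587 genes, whose median kept 102.6%. Hoxa10, Hoxa11 and Hoxa13 had no H3K4me3 region in VTP50469 or DMSO, although MLL1 covered 3268 bases of Hoxa10 in DMSO. The mark was thus found at Hoxa7, at Hoxa9 and on the stretches between Hoxa7 and Hoxa9 and between Hoxa9 and Hoxa10, and did not reach the starts of Hoxa9 or Hoxa10.

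After VTP50469, 73.6% of the H3K4me3 bases of the interval lay in MLL1 regions of NUP98-HOXA9, and in DMSO all of them did. Bases that MLL1 kept were more often marked than bases that it lost. Of the 11938 bases with MLL1 in both arms, 52.8% carried H3K4me3 after VTP50469 and 46.7% in DMSO. Of the 8027 bases with MLL1 in DMSO alone, 28.1% and 29.8% did. The Menin bases in DMSO shared no base with H3K4me3. These lists were made at 72 h for MLL1 and at 96 h for the others, and the part of time was not tested.

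The interval also holds 6 non-coding genes. Mir196b, at chr6:52230081-52230165 between Hoxa9 and Hoxa10, encodes a microRNA that represses Hox messages. Its mature 5p strand, from RefSeq for GRCm38.p6, is shown with its seed, bases 2 to 8, in capitals.
mmu-miR-196b-5p: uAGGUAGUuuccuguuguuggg
MLL1 covered all 85 bases of Mir196b after VTP50469 in NUP98-HOXA9, NUP98-JARID1A and NUP98-NSD1 and none in NUP98-HOXD13, against all 85 in the 4 DMSO lists. H3K4me3 covered it in VTP50469 and in DMSO, and Menin in neither line. Gm52902, a long non-coding RNA gene that overlaps Hoxa10, had 2868 of 5148 bases in MLL1 regions after VTP50469 and 5148 in DMSO in NUP98-HOXA9. NUP98-HOXD13 cells had 1028 and 5148 there. Mira, beside Hoxa7, had 0 and 289 bases in NUP98-HOXD13, and 284 and 798 in NUP98-HOXA9. The antisense gene Hoxa11os, which overlaps Hoxa11, had 1978 and 671 bases in NUP98-JARID1A, and 982 and 4195 in NUP98-NSD1. LOC115490410, inside Hoxa11, had 510 and 530 bases in NUP98-JARID1A, and 0 and 1118 in NUP98-NSD1. Hottip, beyond Hoxa13, is a long non-coding RNA gene whose human RNA brings WDR5 and MLL1 to posterior HOXA genes, and no list had a region over it. The gene table gives no exons, so no region is placed in an exon, intron or untranslated region, and signal over genes that overlap cannot be told apart.

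Summed over the 5 posterior Hoxa genes, MLL1 covered 5823 bp after VTP50469 and 10493 bp in DMSO in NUP98-HOXA9, and 7310 and 18942 bp in NUP98-NSD1. Towards the anterior end of the cluster, Hoxa3, which is 44009 bp long, had fewer covered bases than this 5-gene sum in every line. It had 1548 and 2269 bases after VTP50469 and in DMSO in NUP98-HOXA9, and 51 and 1342 in NUP98-NSD1. In NUP98-HOXD13 it had 3 and 2335 bases, and in NUP98-JARID1A 5042 and 4724. In NUP98-JARID1A Hoxa3 had more covered bases than Hoxa7, Hoxa9 or Hoxa11 in both arms. The wide MLL1 regions of that line began before the interval, at 52208026 after VTP50469 and 52208344 in DMSO. The 2 Hoxa3 counts of NUP98-JARID1A differ by exactly as many bases as these 2 starts do, so these regions reach into Hoxa3. Regions that reach the interval also began before it in NUP98-HOXA9 in both arms, and in DMSO in NUP98-HOXD13 and NUP98-NSD1. The bases of Hoxa3 are therefore not a measure apart from the posterior domain in any line. Hoxa2 and Hoxa5 had no region in any list. Evx1, beyond Hoxa13 on the other side, had none.

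Of the 16 posterior paralogues in the Hoxb, Hoxc and Hoxd clusters, MLL1 lay over 4 in DMSO in NUP98-HOXA9 and in NUP98-HOXD13, of which 1 and 4 were shortened. It lay over 2 in NUP98-JARID1A and in NUP98-NSD1, of which 0 and 2 were. Lengthened were 1 of 4 in NUP98-HOXA9 and 1 of 2 in NUP98-JARID1A. Hoxb8, a gene that blocks myeloid maturation when active, was the longest, with 2928 and 5057 bases after VTP50469 and in DMSO in NUP98-HOXA9. In NUP98-NSD1 it had 501 and 5925.

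Of 9 genes of HOX partner proteins of the MEIS, PBX and PKNOX families, shortened in MLL1 were 2 of 6 covered in NUP98-HOXA9, 2 of 6 in NUP98-HOXD13, 2 of 6 in NUP98-JARID1A and 3 of 3 in NUP98-NSD1. Lengthened were 3 of 6 in NUP98-JARID1A and 1 of 6 in NUP98-HOXA9. Pbx3, whose product binds DNA together with HOXA9, had 8086 and 20747 bases after VTP50469 and in DMSO in NUP98-HOXA9. NUP98-HOXD13 cells had 1801 and 13893. Meis1 had 3234 and 12281 bases in NUP98-JARID1A, the line in which none of the 4 covered posterior Hoxa genes was shortened. In NUP98-NSD1 Meis1 had 0 and 6189.

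Among 15 genes of the MLL1 and menin pathway, shortened in MLL1 were 5 of 15 covered in NUP98-HOXA9, 7 of 15 in NUP98-HOXD13, 1 of 15 in NUP98-JARID1A and 8 of 8 in NUP98-NSD1. Lengthened was 1 gene in each line but NUP98-NSD1, which had none. Over all genes with a region in DMSO the shortened share was 95.8% in NUP98-NSD1, 38.6% in NUP98-HOXD13, 19.1% in NUP98-HOXA9 and 4.77% in NUP98-JARID1A, and nothing particular to these 3 lists is read from their counts. Aff1, which encodes an elongation factor partner of MLL1, had the longest cover in NUP98-JARID1A, with 8839 and 8082 bases. In NUP98-JARID1A the median percent left was 98.7% over the posterior Hoxa genes, 109.4% over the pathway genes, 123.7% over all genes with a region in DMSO and 89.3% over those with at least 2 kb covered. In the same order it was 26.0%, 50.4%, 61.5% and 35.2% in NUP98-HOXD13. NUP98-HOXA9 had 69.2%, 63.5%, 87.1% and 48.8%. In NUP98-NSD1 it was 32.8% over the posterior Hoxa genes and 0% over each of the other 3 sets.

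Genes on other chromosomes whose covered share over the 14 lists was most like that of Hoxa9 were sought by the mean absolute difference in percentage points. Hoxb5, the counterpart in the Hoxb cluster of a more anterior group, came first of 20505 genes with a mean difference of 11.4 points. Socs1, a brake on cytokine signalling, followed with 12.2, then the histone variant gene H2ax with 13.6, LOC115489748 with 13.7 and the transcriptional coactivator gene Cited2 with 13.9. Hoxa7 itself differed from Hoxa9 by 12.3 points and Hoxa10 by 30.6. The 5 genes on other chromosomes are 1053 to 2610 bp long, and a short gene is filled more readily by a region of a given width.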

How the data were processed

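The authors deposited 1 narrowPeak list per library, so peaks were called per sample, each with an interval, a score, a fold enrichment (a ratio), −log10 p- and q-values and a summit. Per the submitters' processing notes, the build was mm10 and the tools were MACS2, bedtools, SAMtools, Picard 2.9.4, STAR 2.7.5a and bcl2fastq 2.20.0.422. What each did, and which input served which list, is not given in the sources used here. The deposited −log10 q of the weakest region in a list was 2.00 to 2.07, so an uncovered base may hold weaker enrichment. The deposited score was not used, and the authors' fold described regions within a list alone. Of 24 libraries, 14 have lists used here; the other 10 are inputs, not analysed here. A number code in the sample titles differs between the MLL1 and Menin libraries of a line, and what it marks is not stated.

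Bases in regions were counted in Python 3.11.15 from the annotated start to the annotated end of each RefSeq gene (GRCm38.p6), with a minimum overlap of 1 bp for shared regions. Base counting was checked on simulated lists. Named were all 5 members in every list, the fixed comparison lists with the member of longest DMSO cover, the non-coding genes of the interval, and the 5 genes most like Hoxa9. A list of anterior Hoxa genes is not reported here as a group. The members and lists were chosen with earlier results of these data known. Alternatives were regions with −log10 q of at least 5, lists of equal length, gaps of up to 500 bp joined, 2 kb added on both sides of a gene, and 50% overlap for a kept region.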

Additional observations from a re-analysis of the deposited data

Results flagged for a closer look

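The percent of MLL1 covered bases left in the interval lay on opposite sides of 100% in 2 lines given the same dose and time, 2 µM for 96 h. NUP98-JARID1A had 102.7% left and NUP98-HOXD13 had 30.2%. Each rests on 1 library per arm, so the difference was not tested. The side of 100% for NUP98-JARID1A depends on the regions used, with 99.1% at a stricter q-value and 92.7% in lists of equal length. The treated list was the longer one in NUP98-JARID1A, 24950 regions against 15765, and the shorter one in NUP98-HOXD13, 14744 against 20154, and the part of list length was not tested.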

How the results depend on the processing

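No paired analysis was possible because each condition with a list has 1 library. With regions of −log10 q of at least 5, the percent of MLL1 bases left in the interval was 99.1% in NUP98-JARID1A, 56.0% in NUP98-HOXA9, 36.1% in NUP98-NSD1 and 26.9% in NUP98-HOXD13, and that of H3K4me3 was 121.7%. In lists of equal length it was 92.7% for MLL1 in NUP98-JARID1A, 40.6% in NUP98-NSD1 and 16.7% for Menin in NUP98-HOXD13. Menin in NUP98-HOXA9 gave no value there, since no DMSO region of the interval was left. With gaps of up to 500 bp joined, MLL1 gave 102.6%, 64.7%, 37.8% and 32.2% in NUP98-JARID1A, NUP98-HOXA9, NUP98-NSD1 and NUP98-HOXD13, Menin in NUP98-HOXD13 11.9% and H3K4me3 100.2%. Counting a DMSO region as kept only with 50% of its bases gave 4 lost MLL1 regions in place of 1 in NUP98-HOXD13, 5 in place of 3 in NUP98-NSD1, and 2 in place of 0 for H3K4me3. The cause was not tested. Without NUP98-NSD1, a choice made after seeing the data, MLL1 bases shared by every line after VTP50469 came to 5177 in place of 3176. Over 22 values of single genes and 86 alternatives, 57 stayed within a 95% binomial interval over bases, 29 moved and 2 changed the call. Those 2 were Menin at Hoxa9 in NUP98-HOXD13, at 68.7% in lists of equal length, and MLL1 at Hoxa7 in NUP98-NSD1, at 39.8% with 2 kb on both sides. Bases of a region are not independent of each other, so this interval served as a cut-off and measures no error. Among the 57 are values that stayed at 0% or 100% under every alternative. With 2 kb on both sides MLL1 at Hoxa11 in NUP98-JARID1A passed to 152.5%, against 97.4%, and H3K4me3 at Hoxa9 to 97.2%, against 100.7%. Hoxa10 kept 5.60% in NUP98-HOXA9 and 0% in NUP98-HOXD13 at the stricter q. Read depth is unknown, so weaker enrichment in uncovered bases cannot be told apart from none.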
